A study of Mus musculus with 12 samples.

Results

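The genes described here are 8 subunits of the voltage-gated sodium channel, chosen by name: the pore-forming alpha subunit genes Scn1a, Scn2a, Scn3a, Scn8a and Scn9a, and the auxiliary beta subunit genes Scn2b, Scn3b and Scn4b. They are 8 of the 54232 genes in the count table. Transcripts were measured in 12 pools of fluorescent cells, labelled as retinal ganglion cells, that were picked from the retina of wild-type (WT) adult male mice. The 4 groups of 3 libraries were GFP day 7 (AAV-GFP, 7 days after optic nerve crush), Olig1 day 7 (AAV-Olig1, 7 days), GFP day 14 (AAV-GFP, 14 days) and Olig1 day 14 (AAV-Olig1, 14 days). All 4 groups therefore carried a virus and an optic nerve crush, an injury that cuts or compresses the axons of ganglion cells, and all labels give 14 days of virus. When the virus was given relative to the crush is not clear from the labels, so a difference between the days in that interval and in the time after the crush cannot be told apart. A library is a pool of a few cells, given as 10 to 20 in the labels' protocols, the promoter of the virus is not given in the sources used here, and an uninjured or uninjected group was not analysed here.

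Voltage-gated sodium channels open when a neuron's membrane is depolarised and carry the inward current of the action potential. An alpha subunit forms the whole pore and its voltage sensors, and beta subunits, which are single-pass membrane proteins of the immunoglobulin family, alter the gating of the channel and its placement in the membrane. Ganglion cells are the retinal neurons whose axons form the optic nerve, and they concentrate sodium channels at the axon initial segment, where spikes start. Amacrine cells, which are interneurons of the inner retina, express sodium channel genes too, while rods and cones signal mainly through graded potentials. Olig1 is a basic helix-loop-helix factor, a family that binds the E-box.

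The members lie in 3 groups on the genome (GRCm38, GENCODE M21). Scn3a (chr2:65457118-65567627), Scn2a (chr2:65620771-65767447), Scn1a (chr2:66270778-66440840) and Scn9a (chr2:66480080-66634962) stand in a cluster with Scn7a that spans 1327.8 kb of chromosome 2. Scn8a lies alone on chromosome 15 (chr15:100869858-101045938). Scn2b (chr9:45117782-45130070) and Scn4b (chr9:45138395-45154152) are neighbours on the same strand with 8.32 kb between them, and Scn3b (chr9:40269217-40291618) lies on the same chromosome.

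The alpha genes are close copies, and this bears on how reads can be told apart. The longest identical run over the whole coding sequence was 188 bases between Scn1a and Scn2a and 184 bases between Scn3a and Scn9a, while no run between Scn8a and another alpha gene passed 55 bases. Of all windows of 50 bases in the transcripts, 4.03% of Scn1a, 5.62% of Scn2a, 6.49% of Scn3a and 4.04% of Scn9a also occurred in another sodium channel gene, against 0.0374% of Scn8a. Reads from these windows cannot be assigned with certainty, and the remaining windows are specific within the family. The beta genes shared no such window with another sodium channel gene, and their longest identical coding runs were 10 to 13 bases. Scn9a also shares 180 exon bases with Gm13629 on the opposite strand, which had 3208 counts in all, and the strand setting of the counting is not given in the sources used here.

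The bases just upstream of Scn2b and Scn1a are shown because Scn2b was the only member that passed the test between the viruses, and Scn1a was the alpha gene with the highest level in most libraries. Both are given 5′ to 3′ on the gene's strand and come from RefSeq promoter entries on GRCm38, cut to end at the base before the GENCODE start. Capitals mark the E-box (CANNTG, which reads the same on both strands). The Scn2b sequence is chr9:45117626-45117781 on the plus strand, and the Scn1a sequence is chr2:66440841-66441087 on the minus strand.
Scn2b: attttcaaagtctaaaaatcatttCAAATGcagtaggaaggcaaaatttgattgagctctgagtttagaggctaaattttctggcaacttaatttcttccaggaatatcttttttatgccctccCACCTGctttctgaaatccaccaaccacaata
Scn1a: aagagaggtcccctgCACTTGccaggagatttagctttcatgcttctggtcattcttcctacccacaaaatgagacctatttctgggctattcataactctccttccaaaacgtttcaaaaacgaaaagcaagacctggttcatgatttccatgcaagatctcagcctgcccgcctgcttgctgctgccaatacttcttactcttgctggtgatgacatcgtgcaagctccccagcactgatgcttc

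An E-box was present in 5 of the 8 RefSeq windows of 250 upstream bases that belong to 6 of the members (2 each for Scn2a and Scn8a), and in 66.2% of all 32851 such windows. The GC box (GGGCGG, both strands) was in 0 of the 8 windows and in 32.7% of all, and TATAAA (both strands) was in 1 of the 8 and in 12.4% of all. TGACG, a part of the cyclic AMP response element, was in 0 of the 8 on either strand and in 17.8% of all. Scn3a and Scn3b had no entry.

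Levels are given as CPM (counts scaled to a library total of 1000000). Total counts ran from 12534515 to 27602459 per library, so that a count of 0 allows up to 0.109 to 0.239 CPM, for counting error only. Olig1 itself stood at 0 to 0.351 CPM in the 6 GFP libraries and at 56.4 to 1029 CPM in the 6 Olig1 libraries. The labelled cell type was not borne out evenly by its markers: the 16 ganglion cell markers summed to 218 to 356 CPM in GFP day 7, 3273 to 4965 CPM in Olig1 day 7 and 218 to 424 CPM in GFP day 14. In Olig1 day 14 they came to 278, 3988 and 228 CPM in replicates 1, 2 and 3. Of the defining ganglion cell genes, Slc17a6 was at 0 in 2 of 3 GFP day 7 libraries and in 3 of 3 GFP day 14 libraries. Pou4f2 was at 0 in all 6 GFP libraries, and Pou4f3 was at 0 in all 12 libraries. In Olig1 day 14, Slc17a6 was at 0 in 1 of 3 libraries and Pou4f2 in 2 of 3, while both had counts in every Olig1 day 7 library. GFP day 14 replicate 1 had the fewest genes detected (10129, against 14123 to 17244 in the other libraries), and microglia and macrophage markers summed to 1353 to 8987 CPM in 4 libraries (GFP day 7 replicate 3, Olig1 day 7 replicate 3 and GFP day 14 replicates 2 and 3) and to at most 47.9 CPM in the others. GFP day 14 replicate 3 also stood apart in plasma cell markers, mostly immunoglobulin genes, which summed to 132528 CPM there and to at most 67.4 CPM in the other libraries. Log2 fold changes are ± SE from edgeR's quasi-likelihood test of all 12 libraries, with p-values adjusted by Benjamini-Hochberg over 14985 genes. Since nothing in the labels ties the libraries of a group to different animals, each p-value reflects only how far these libraries spread, and that spread may be technical.

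All 8 genes were detected in at least 5 libraries, and between 4 members (GFP day 14 replicate 1) and 8 members were detected in a library. Over the whole comparison at day 7, 1 of the 8 members passed the test (Scn2b, higher with Olig1), against 0.227% of all genes tested. At day 14, 0 of the 8 passed it by edgeR, against 0.04% of all genes, while 2 (Scn3b and Scn9a) had an unadjusted p under 0.05 (10.4% of all genes) and DESeq2 called 1 (Scn9a, against 5.01% of all genes by that test). Over the mean of both days 1 of the 8 passed, Scn2b again, against 0.654% of all genes. Scn2b and Scn3b passed at day 7 and over both days by limma voom, which called 2.87% and 3.07% of all genes, and over both days in edgeR without a filter on low counts, which called 1.6%. Scn3b had counts only with Olig1 and reached the filter on low counts in 0 of 6 GFP libraries, so its p-values are no support for a difference.

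**Figure D1:**
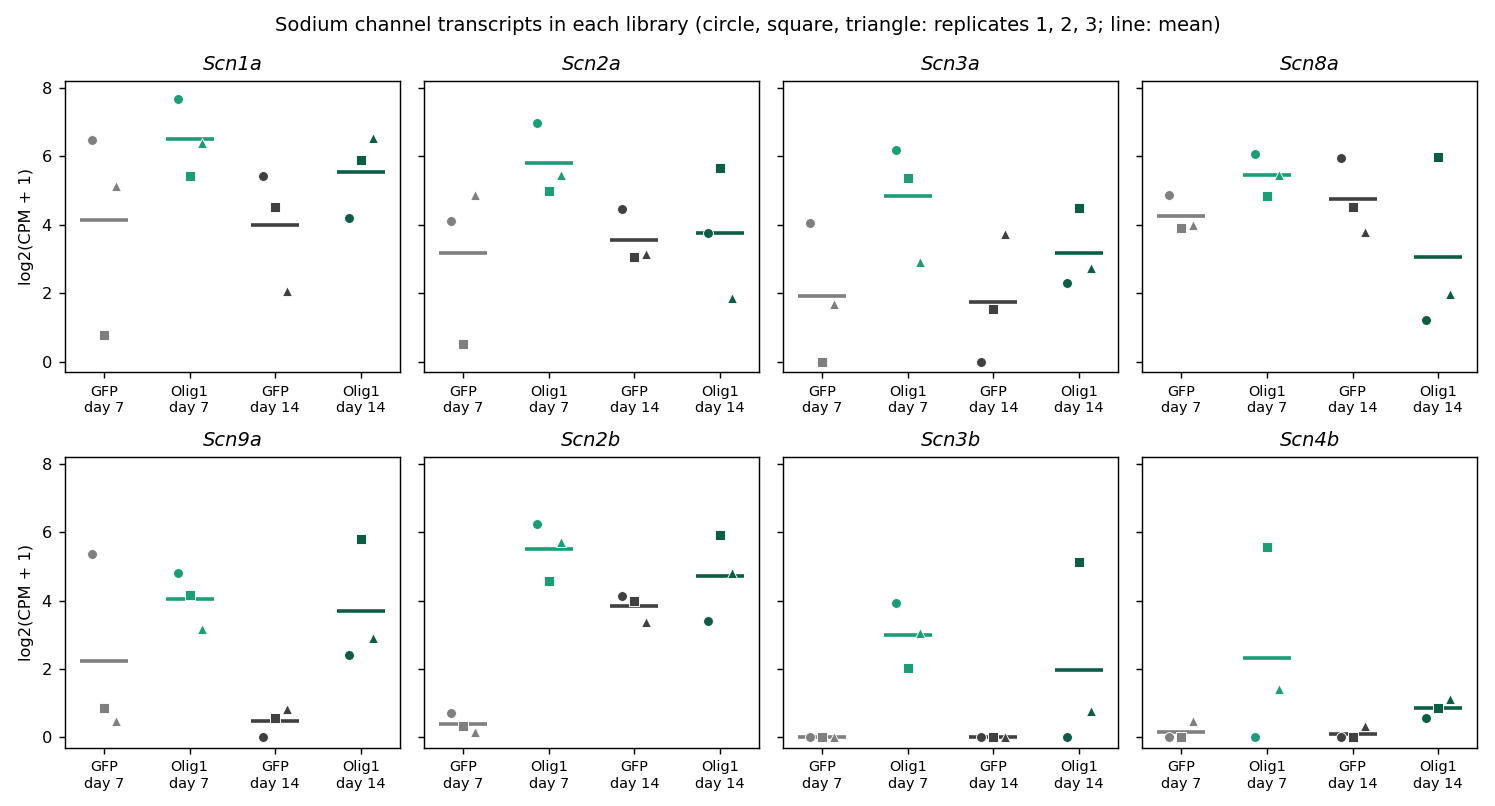
Level of each of the 8 sodium channel genes in the 12 libraries, as log2(CPM + 1), by group. Circles, squares and triangles are replicates 1, 2 and 3, and the line is the mean of the plotted values. Scn2b in GFP day 7 lies below all other libraries, Scn3b is at 0 in all 6 GFP libraries, and the alpha genes overlap between most groups.

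Scn1a encodes Nav1.1, an alpha subunit of many central neurons. It stood at 89.0, 0.712 and 33.9 CPM in GFP day 7 and at 205, 41.8 and 83.0 CPM in Olig1 day 7. The day 14 levels were 41.7, 21.7 and 3.22 CPM with GFP and 17.4, 58.9 and 92.3 CPM with Olig1. GFP day 7 replicate 2 and GFP day 14 replicate 3 were the lowest, and the viruses overlapped at both days. Olig1 over GFP gave a log2 fold change of 1.58 ± 1.15 at day 7 (edgeR adjusted p = 0.591), 1.47 ± 1.14 at day 14 (edgeR adjusted p = 0.841) and 1.52 ± 0.81 over both days (edgeR adjusted p = 0.403), none past the threshold. Leaving out 1 library moved the value at day 7 to between 0.96 (without Olig1 day 7 replicate 1) and 2.79 (without GFP day 7 replicate 1).

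Scn2a encodes Nav1.2, which occupies initial segments of developing neurons and unmyelinated axons. It stood at 16.4, 0.438 and 28.5 CPM in GFP day 7 and at 125, 30.5 and 42.9 CPM in Olig1 day 7. The 3 Olig1 libraries lay above the 3 GFP libraries at this day, but the log2 fold change of 2.30 ± 1.28 did not pass the test (edgeR adjusted p = 0.443). The day 14 levels were 21.1, 7.39 and 7.93 CPM with GFP and 12.5, 49.7 and 2.66 CPM with Olig1, where Olig1 replicate 2 was the highest library of that day and Olig1 replicate 3 the lowest. At this day the log2 fold change was 0.89 ± 1.23 (edgeR adjusted p = 0.991), and it was −0.59 without Olig1 day 14 replicate 2.

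Scn3a encodes Nav1.3, an alpha subunit of embryonic neurons that returns in some injured adult neurons. It stood at 15.7, 0 and 2.22 CPM in GFP day 7 and at 72.2, 40.5 and 6.56 CPM in Olig1 day 7. The day 14 levels were 0, 1.88 and 12.2 CPM with GFP and 3.93, 21.5 and 5.69 CPM with Olig1. The viruses overlapped at both days, and a count of 0 was found only in 1 GFP library of each day. Log2 fold changes were 3.12 ± 2.09 at day 7 (edgeR adjusted p = 0.550) and 0.84 ± 1.95 at day 14 (edgeR adjusted p = 1.00), where it was −0.30 without Olig1 day 14 replicate 2.

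Scn8a encodes Nav1.6, the alpha subunit of mature initial segments and nodes of Ranvier. It was the most even of the alpha genes in GFP day 7, at 28.3, 13.9 and 14.9 CPM, and it stood at 66.7, 27.7 and 42.8 CPM in Olig1 day 7. The day 14 levels were 61.3, 21.99 and 12.7 CPM with GFP and 1.31, 62.4 and 2.93 CPM with Olig1. Olig1 day 14 replicates 1 and 3 were thus the lowest of all 12 libraries, and replicate 2 was above all 3 GFP libraries. For Olig1 over GFP it gave log2 fold changes of 1.42 ± 1.18 at day 7 (edgeR adjusted p = 0.656) and −0.40 ± 1.16 at day 14 (edgeR adjusted p = 1.00). Without Olig1 day 14 replicate 2 the value at day 14 was −3.84 ± 1.19 (edgeR adjusted p = 0.688). Over all 14 alternatives at day 14, this one among them, the adjusted p ranged from 0.553 to 1.00.

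Scn9a encodes Nav1.7, best known from pain-sensing and sympathetic neurons. It stood at 40.01, 0.821 and 0.410 CPM in GFP day 7, where replicate 1 held 751 of the group's 773 counts, and at 26.9, 16.8 and 7.98 CPM in Olig1 day 7. Its log2 fold change at day 7 was 0.69 ± 1.81 (edgeR adjusted p = 0.933), and it was 4.92 without GFP day 7 replicate 1. The day 14 levels were 0, 0.471 and 0.793 CPM with GFP and 4.31, 54.9 and 6.44 CPM with Olig1, so that the 3 Olig1 libraries lay above the 3 GFP libraries, as they did for 7.78% of all genes and for Scn4b as the only other member. The log2 fold change at day 14 was 5.51 ± 2.19, with an unadjusted p of 0.0232 and an edgeR adjusted p of 0.438, in a range of 0.0210 (DESeq2) to 0.985 over 15 alternatives. Over both days it was 3.10 ± 1.38 (edgeR adjusted p = 0.303).

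Compared with each other per length (CPM per kilobase of exon, RPKM), Scn1a was the highest of the 5 alpha genes in 9 of 12 libraries. Scn8a was the highest in GFP day 7 replicate 2 and GFP day 14 replicate 1, and Scn3a in GFP day 14 replicate 3. Scn1a made up 35.0% ± 25.1 (SD, n = 3) of the alpha RPKM in GFP day 7, 42.1% ± 10.7 in Olig1 day 7, 32.7% ± 19.6 in GFP day 14 and 53.7% ± 29.6 in Olig1 day 14. The share of Scn8a was 36.9% ± 41.2, 14.4% ± 4.01, 35.0% ± 6.37 and 8.37% ± 10.6 in the same order. At day 14 the Scn8a shares of the Olig1 libraries (1.93% to 20.7%) lay below those of the GFP libraries (29.3% to 41.9%). The differences between these shares were not tested.

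The summed RPKM of the alpha genes was 7.65 ± 7.28 (SD, n = 3) in GFP day 7, 22.5 ± 15.5 in Olig1 day 7, 5.39 ± 3.44 in GFP day 14 and 10.7 ± 7.999 in Olig1 day 14. The ranges were 1.04 to 15.5, 12.5 to 40.4, 2.76 to 9.28 and 3.28 to 19.2, so the sums of the viruses overlapped at both days.

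**Figure D2:**
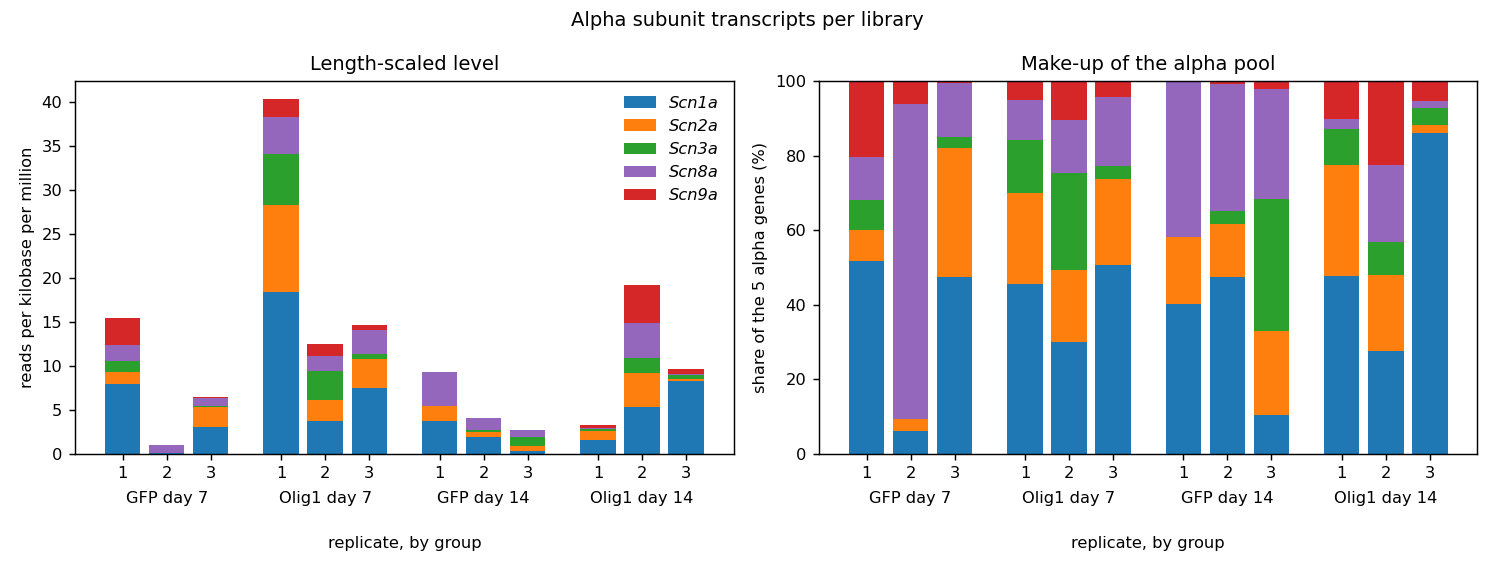
Alpha subunit transcripts in each library as stacked bars, by RPKM on the left and as shares of the 5 genes on the right. Scn1a is the widest band in 9 libraries, and Olig1 day 7 replicate 1 has the highest sum (40.4).

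Among the beta genes, Scn2b differed most clearly between the groups. Scn2b encodes the beta-2 subunit, which is linked to the alpha subunit by a disulfide bond and favours its surface expression. It stood at 0.639, 0.274 and 0.117 CPM in GFP day 7, from 12, 5 and 2 counts, and at 74.3, 22.7 and 51.8 CPM in Olig1 day 7, from 1366, 284 and 766 counts. The groups lay far apart, and all 3 Olig1 libraries were above all 3 GFP libraries, as they were for 9.4% of all genes at this day and for Scn2a and Scn3b among the other members. The log2 fold change was 7.24 ± 1.29 (edgeR adjusted p = 0.0300, in a range of 6.79e-14 to 0.185 over 14 alternatives). The log2 fold change stayed within 6.83 to 7.91 when any 1 of these 6 libraries was left out, but the adjusted p passed the threshold only without Olig1 day 7 replicate 3 (0.0427). It was 0.107, 0.147 and 0.185 without GFP replicates 1, 2 and 3, and 0.0722 and 0.0756 without Olig1 replicates 1 and 2.

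At day 14 Scn2b stood at 16.6, 15.0 and 9.27 CPM with GFP and at 9.64, 58.8 and 26.9 CPM with Olig1. Olig1 replicate 1 lay inside the GFP range and the other two above it. The log2 fold change was 1.25 ± 0.99 (edgeR adjusted p = 0.852), and it was 0.41 without Olig1 day 14 replicate 2. Over the mean of both days it was 4.25 ± 0.79 (edgeR adjusted p = 0.0291, in a range of 2.99e-10 to 0.217 over 20 alternatives, 9 of them past the threshold). Leaving out 1 library gave 3.81 to 4.58, with an adjusted p of 0.0548 to 0.0917 in 8 of the 12 cases (any GFP library of day 7, replicate 1 or 2 of Olig1 day 7, replicate 2 or 3 of GFP day 14, and replicate 2 of Olig1 day 14).

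Scn3b encodes the beta-3 subunit, which associates with the alpha subunit without a covalent bond. It had 0 counts in all 6 GFP libraries, each of which allows at most 0.109 to 0.176 CPM. The Olig1 day 7 libraries held 14.4, 3.11 and 7.23 CPM, and the Olig1 day 14 libraries 0, 33.7 and 0.692 CPM. It was thus present in 5 of 6 Olig1 libraries, and Olig1 day 14 replicate 2 held 828 of the 841 counts of its group. Against 3 counts over the GFP group, Scn3b was at least 162-fold higher with Olig1 at day 7 (edgeR adjusted p = 0.268), at least 338-fold higher at day 14 (edgeR adjusted p = 0.438) and, as the geometric mean of these bounds, at least 234-fold higher over both days (edgeR adjusted p = 0.0902, in a range of 0.00820 to 0.362 over 18 alternatives). None of the 3 passed the threshold. Since Scn3b reached the filter on low counts in 0 of 6 GFP libraries and 5 of 6 Olig1 libraries, it entered the test only through the group where it is high, and its p-values are no support for a difference. Without Olig1 day 14 replicate 2 the bound was 8.47-fold at day 14 and 37.0-fold over both days.

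Scn4b encodes the beta-4 subunit, whose tail can block the open pore and allow resurgent current. It was scarce in 11 libraries, at 0 to 1.69 CPM, and stood at 46.0 CPM in Olig1 day 7 replicate 2, which held 577 of the 602 counts of its group. The GFP libraries held 0, 0 and 0.410 CPM at day 7, then 0, 0 and 0.251 CPM at day 14. The Olig1 libraries held 0, 46.0 and 1.69 CPM at day 7, then 0.485, 0.815 and 1.17 CPM at day 14. At day 14 the 3 Olig1 libraries lay above the 3 GFP libraries, as for 7.78% of all genes, from 52 counts against 6. Scn4b reached the filter on low counts in 0 of 6 GFP and 4 of 6 Olig1 libraries. It thus entered the test only through the group where it is high, and its p-values are no support for a difference. Its log2 fold change was 7.60 ± 3.25 at day 7 (edgeR adjusted p = 0.316), and it was 2.54 without Olig1 day 7 replicate 2. At day 14 it was 2.91 ± 2.63 (edgeR adjusted p = 0.910), and over both days 5.26 ± 2.07 (edgeR adjusted p = 0.238).

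Per length, Scn2b was the highest of the 3 beta genes in 10 of 12 libraries and Scn4b in the other two, GFP day 7 replicate 3 and Olig1 day 7 replicate 2. The summed RPKM of the 3 genes was 0.101 ± 0.0396 (SD, n = 3) in GFP day 7, 15.3 ± 2.95 in Olig1 day 7, 2.94 ± 0.801 in GFP day 14 and 9.09 ± 8.78 in Olig1 day 14. The sum in GFP day 7 (0.0588 to 0.137) was below that of every other library, while the alpha sum of the same group (1.04 to 15.5) overlapped those of all other groups.

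As a list, the members are given without Scn3b and Scn4b, which reached the filter on low counts in no GFP library and so had to differ in 1 direction. Of the 6 others, 6 had a positive log2 fold change at day 7, against 49% of all genes, with a median of 1.94 against −0.03 over all genes. Their unadjusted p was under 0.05 for 1 of the 6 (Scn2b), against 13.9% of all genes. At day 14, 5 of the 6 were positive (52.6% of all genes) with a median of 1.07 against 0.09, and over both days 6 of the 6 (51.9% of all genes) with a median of 1.79 against 0.06. Over both days 2 of the 6 (Scn9a and Scn2b) had an unadjusted p under 0.05, against 14.9% of all genes.

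**Figure D3:**
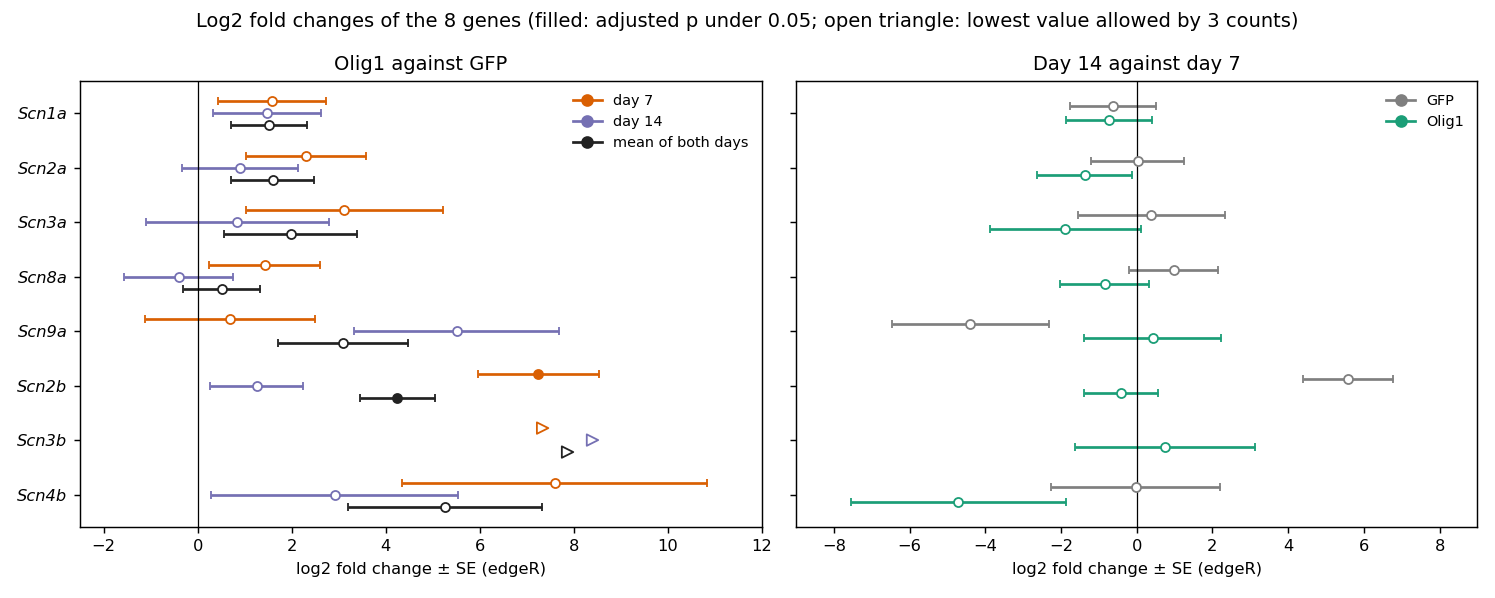
Log2 fold changes ± SE of the 8 genes by edgeR, Olig1 over GFP on the left and day 14 over day 7 on the right. Filled points have an adjusted p under 0.05 (Scn2b at day 7 and over both days), and open triangles for Scn3b give the lowest value that 3 counts in the GFP group allow. Scn3b is left out for GFP on the right because both groups were at 0.

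Whether the difference between the viruses changed between the days was asked with an interaction term, by which edgeR called 0 of the 8 members and 0 of all 14985 genes, a background of 0%. At an unadjusted p under 0.05 there were 1484 genes (9.9%), and DESeq2 called 527 (3.52%). For Scn2b the difference between the viruses was lower by 5.99 ± 1.50 at day 14 on the log2 scale, which is the −5.99 of the fit (unadjusted p = 0.00109, edgeR adjusted p = 0.341, and 4.56e-05 by DESeq2, in a range of 4.56e-05 to 0.616 over 20 alternatives). For Scn9a it was 4.82 ± 2.68 higher (edgeR adjusted p = 0.576). For Scn3b no fold was computed, since GFP was at 0 at both days.

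The same values can be read within each virus. Between day 7 and day 14 with GFP, edgeR called 0 of all genes (0%, with 1540 or 10.3% at an unadjusted p under 0.05, and 640 or 4.27% by DESeq2). Scn2b was the member with the smallest p, with a log2 fold change of 5.58 ± 1.20 (unadjusted p = 0.000282, edgeR adjusted p = 0.352, and 7.65e-08 by DESeq2, in a range up to 0.719 over 15 alternatives). All 3 GFP day 14 libraries lay above all 3 GFP day 7 libraries for Scn2b, as they did for 3.96% of all genes. Ganglion cell marker sums of these groups overlapped (218 to 356 and 218 to 424 CPM). These sums include Isl1, a bipolar cell marker too (44.6 to 200 and 120 to 188 CPM), so their overlap does not show like ganglion cell content. Scn9a had a log2 fold change of −4.40 ± 2.08 (edgeR adjusted p = 0.487) and −0.16 without GFP day 7 replicate 1. With Olig1, 0 of the 8 members were called, against 0.0334% of all genes, and Scn2b had a log2 fold change of −0.41 ± 0.98 (edgeR adjusted p = 0.935).

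Among other genes of the family, Scn10a and Scn11a, channels of pain-sensing neurons, had 0 counts in every library, and Scn4a, the channel of skeletal muscle, had 1 count in all. Scn7a, an atypical sodium channel also found in glia, stood at 42.1 ± 20.6 (SD, n = 3), 15.1 ± 10.7, 12.9 ± 15.3 and 22.2 ± 19.0 CPM in the 4 groups (GFP and Olig1 at day 7, then GFP and Olig1 at day 14). Its log2 fold change at day 7 was −1.56 ± 1.24 (edgeR adjusted p = 0.633). Nalcn, a sodium leak channel, stood at 10.4 ± 17.0, 20.5 ± 13.5, 7.96 ± 8.38 and 16.0 ± 13.9 CPM.

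Genes that hold or tune sodium channels were counted from lists. Of 14 genes of the axon initial segment and node, such as the ankyrin gene Ank3, 0 were called at day 7, at day 14 or over both days. The shares of all genes called were 0.227%, 0.04% and 0.654%. At day 7, 10 of the 14 were positive (49% of all genes), with a median of 0.80 against −0.03 over all genes. Of the 14, 1 (Kcna1) had an unadjusted p under 0.05 (13.9% of all genes). The 10 include Kcna1 and Cntn2, whose direction at day 7 was fixed by how they met the filter on low counts. The count, the median and this p include them and so are not free of that filter. Kcna1, a potassium channel gene of the region beside the node, had 0 counts in the 3 GFP day 7 libraries and 8.70, 31.2 and 20.7 CPM in the Olig1 day 7 libraries. Against 3 counts over the GFP group it was at least 338-fold higher, which did not pass the threshold (edgeR adjusted p = 0.208) but did by DESeq2 (0.000137) and voom (0.00887). These tests called 930 and 430 of all 14985 genes at day 7. The day 14 levels of Kcna1 were 0, 3.99 and 0.376 CPM with GFP and 0, 0 and 0.266 CPM with Olig1, with a log2 fold change of −3.93 ± 2.49 (edgeR adjusted p = 0.713). Cntn2, a cell adhesion gene of the same region, had a log2 fold change of 5.38 ± 2.58 at day 7 (edgeR adjusted p = 0.370). Over both days the smallest p of the list belonged to Kcna2, another potassium channel gene of that region (2.78 ± 1.06, edgeR adjusted p = 0.222, and 0.0435 by DESeq2), followed by Cntn2 (3.98 ± 1.71, edgeR adjusted p = 0.281, and 0.0479 by DESeq2). DESeq2 called 1136 of all 14985 genes over both days. Kcna1 and Cntn2 met the filter on low counts only through Olig1 day 7, where they are high, so their p-values are no support for a difference.

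Of 11 regulators that bind or modify the channels, 0 were called at day 7 (0.227% of all genes) and at day 14 (0.04%). Over both days 1 was higher, against 0.654% of all genes called in either direction. This was Calm2, a calmodulin gene, with a log2 fold change of 1.32 ± 0.26 (edgeR adjusted p = 0.0326, in a range of 4.26e-05 to 0.247 over 20 alternatives). The call was lost in 8 of the 12 cases with 1 library left out: GFP day 7 replicate 1 or 3, Olig1 day 7 replicate 1, any GFP library of day 14, or replicate 1 or 2 of Olig1 day 14. Over both days 10 of the 11 were positive (51.9% of all genes) with a median of 0.81 against 0.06 over all genes. Of 6 subunits of the sodium pump, which restores the sodium gradient, 1 was higher over both days and 0 were lower (0.654% of all genes called). This was Atp1b1, at 113, 67.1 and 101 CPM in GFP day 7 and 1572, 312 and 311 CPM in Olig1 day 7, and at 168, 70.0 and 219 CPM and 273, 579 and 474 CPM at day 14. Every Olig1 library lay above every GFP library. Within a day, Olig1 lay above GFP without overlap for 9.4% of all genes at day 7 and 7.78% at day 14. The share of genes that do so over all 12 libraries together was not counted. The log2 fold change of Atp1b1 over both days was 2.24 ± 0.46 (edgeR adjusted p = 0.0376, in a range of 6.57e-05 to 0.111 over 20 alternatives). Its call was lost in 8 of the 12 cases too: any GFP library of day 7, Olig1 day 7 replicate 1, replicate 1 or 2 of GFP day 14, or replicate 2 or 3 of Olig1 day 14. The other two pump beta genes had negative values over both days, −1.65 ± 0.59 for Atp1b3 (edgeR adjusted p = 0.189) and −0.43 ± 0.40 for Atp1b2 (edgeR adjusted p = 0.683).

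REST is a repressor that silences neuronal genes, Scn2a among its known targets, in cells that are not neurons. Of 7 genes of this repressor and its partners, 0 were called in any of the 3 comparisons of the viruses. All 7 were negative at day 7, where 49% of all genes were positive, with a median of −0.54 against −0.03 over all genes. Their unadjusted p at day 7 was under 0.05 for 0 of the 7, against 13.9% of all genes. At day 14, 4 of 7 were positive (52.6% of all genes), with a median of 0.04 against 0.09. Any link of these genes to the sodium channel levels was not tested. The smallest p at day 7 was that of Hdac1 (−1.26 ± 0.78, edgeR adjusted p = 0.505), followed by Rcor1 (−3.23 ± 2.10, edgeR adjusted p = 0.531). Over both days it was that of Rcor1 (−1.99 ± 1.41, edgeR adjusted p = 0.560), followed by Hdac2 (0.57 ± 0.53, edgeR adjusted p = 0.688). Without GFP day 7 replicate 2 the value of Rcor1 at day 7 was 0.71.

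Markers of ganglion cells were high in some of the libraries where Scn2b and Scn3b were high. The ganglion cell marker sums given above were high in the 3 Olig1 day 7 libraries and in Olig1 day 14 replicate 2, and the 4 highest levels of Scn3b lay in those libraries. Scn2b was in the highest 3 in Olig1 day 7 replicates 1 and 3 and Olig1 day 14 replicate 2, but it also stood at 9.27 to 26.9 CPM in the 5 other day 14 libraries, whose ganglion cell sums were 218 to 424 CPM. Isl1, which marks bipolar cells too, is part of these sums, so like sums need not mean like ganglion cell content. The 14 amacrine markers summed to 379 to 854 CPM in GFP day 7, 1796 to 4290 CPM in Olig1 day 7, 500 to 880 CPM in GFP day 14 and 807 to 2019 CPM in Olig1 day 14. Scn4b was highest (46.0 CPM) in Olig1 day 7 replicate 2, which also had the highest ganglion cell sum (4965 CPM). Its next level, 1.69 CPM, was in Olig1 day 7 replicate 3 (3623 CPM of these markers). In contrast, Scn4b was at 0 in Olig1 day 7 replicate 1 (3273 CPM) and at 1.17 CPM in Olig1 day 14 replicate 3 (228 CPM). The part of these cells in the sodium channel differences was not tested, and in pools fewer cells of a type and less RNA per cell cannot be told apart.

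Summed markers of rods, cones and bipolar cells were lower with Olig1 at day 7. The 13 rod markers summed to 13566 to 61945 CPM in GFP day 7 and 674 to 1401 CPM in Olig1 day 7, and to 4903 to 61989 CPM and 1241 to 14202 CPM at day 14. The 10 cone markers ran from 1414 to 1949 CPM in GFP day 7 and from 27.1 to 109 CPM in Olig1 day 7, and the 13 bipolar cell markers from 1268 to 2325 and from 241 to 536 CPM. At day 14 the rod sums of the viruses overlapped, while the cone sums (GFP 1177 to 5610 CPM, Olig1 71.2 to 760 CPM) and the bipolar sums (1730 to 6131 and 327 to 590 CPM) did not. In the cone sums with GFP, Gnb3 alone held 846 to 1768 CPM at day 7 and 1100 to 5578 CPM at day 14. All other genes of the cone list overlapped between the viruses at day 14. Opn1sw, for example, ran from 0 to 471 CPM with GFP and from 2.28 to 230 CPM with Olig1. Horizontal cell markers overlapped at both days, at 232 to 3654 CPM in GFP day 7, 236 to 512 CPM in Olig1 day 7, 724 to 9805 CPM in GFP day 14 and 4799 to 16191 CPM in Olig1 day 14. The 12 Müller glia markers summed to 46982 to 146089 CPM over the 4 groups, of which Apoe alone held 38975 to 115723 CPM. Other genes of this list were lower with Olig1 at day 7. Glul ran from 3770 to 5081 CPM with GFP and from 245 to 936 CPM with Olig1, and Rlbp1 from 765 to 1740 and from 168 to 370 CPM. Slc1a3, Aqp4, Dkk3, Sox9, Clu, Car14 and Abca8a were lower too, while Apoe, Vim and Kcnj10 overlapped. At day 14 Glul and Rlbp1 overlapped. Leaving out the 4 libraries rich in microglia markers left Scn2b at a log2 fold change of 6.88 at day 7, with an edgeR adjusted p of 0.0911.

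**Figure D4:**
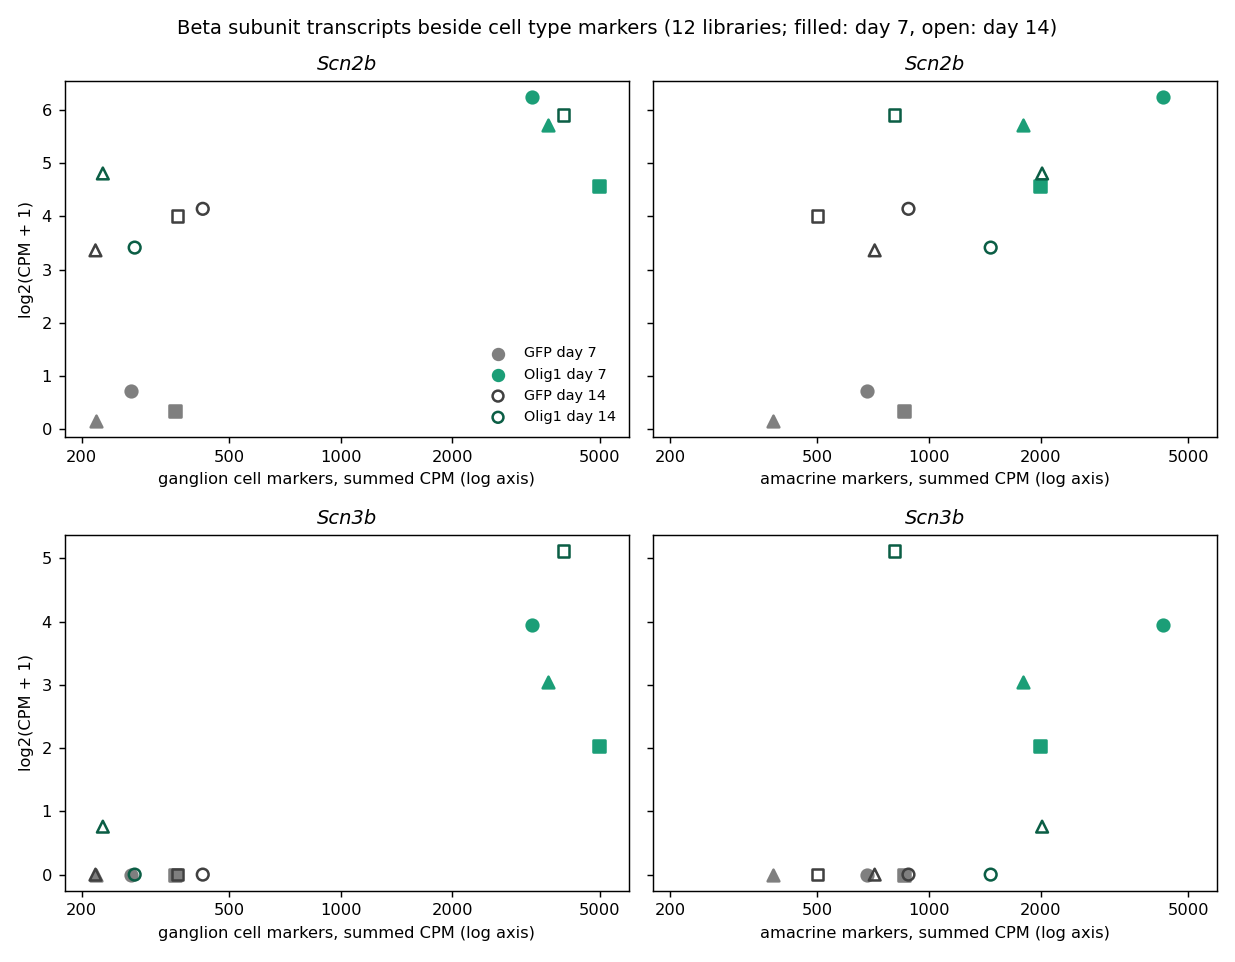
Level of Scn2b (top) and Scn3b (bottom), as log2(CPM + 1), beside the summed CPM of ganglion cell markers (left) and amacrine markers (right, log axes) in the 12 libraries. Scn3b is highest in the 4 libraries with the highest ganglion cell sums (3273 to 4965 CPM). The GFP day 7 and GFP day 14 libraries differ in Scn2b and overlap in ganglion cell sums. These sums include Isl1, a bipolar cell marker too, so they do not show like ganglion cell content.

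Across the 12 libraries, the genes closest to each member were found by Pearson's r of log2(CPM + 1) over 12513 tested genes. These values are descriptions over libraries that share group and depth. Closest to Scn2b were Gabbr1, a GABA-B receptor gene (r = 0.96), the kinase gene Sik3 (0.92) and the neuronal kinesin gene Kif5a (0.91). Closest to Scn1a were Mapt, which encodes tau (0.92), the G protein gene Gng3 (0.91) and the serpin gene Serpini1 (0.91). Scn3b was closest to Gpr26 (0.99), Rnd1 (0.99) and the potassium channel gene Kcnc2 (0.99), genes that share its many libraries at or near 0.

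The genes closest to Scn2a were Pcdhb9 (0.89), R3hdm2 (0.88) and B3galnt1 (0.87), and those closest to Scn3a were Nhlh2 (0.91), Gdap2 (0.91) and Emc10 (0.89). Scn8a was closest to Efr3b (0.89), Sssca1 (0.88) and Rab3c (0.87). Scn9a was closest to Mpv17 (0.93), Zdhhc22 (0.91) and Fosb (0.91). Scn4b was closest to Fbxl13 (0.98), Amz1 (0.98) and Dchs2 (0.98), and its values rest on 1 high library. Among the members themselves, r ran from 0.02 (Scn8a and Scn4b) to 0.81 (Scn3a and Scn9a). Scn2b and Scn3b had an r of 0.72, and Scn1a and Scn2a an r of 0.71.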

How the data were processed

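The authors deposited raw counts of reads per Ensembl gene, made with FastQC, HISAT2 and HTSeq on mm10, per the submitters' processing notes. No version, annotation or strand setting is named (not given in the sources used here). The series table was used, and genes shared with the per-sample tables differed in 0 cases. In 4 per-sample tables between 270 and 2853 genes of the series table, with 2.73% to 13.96% of its counts, were not found, none of them a member. Symbols came from a gene name table and coordinates, exon lengths and coding exons from GENCODE M21. Per the labels' protocols, cDNA was amplified by 20 PCR cycles with the SMART-Seq HT kit, without a molecular identifier named, so duplicates can inflate counts.

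Counts were tested with edgeR 4.0.16 in R 4.3.3 (quasi-likelihood, robust, TMM scaling, filterByExpr with a minimum count of 10, adjusted p threshold 0.05, 1 fit of 12 libraries on 4 groups, checked on simulated data). Simulated with the dispersion of these data, 1% of 4-fold and 52% of 64-fold changes at day 7 were recovered, so a gene that was not called may still differ. Alternatives used DESeq2 1.42.0 and limma 3.58.1, other filters, a replicate block and leaving out libraries. Python 3.11.15 with pandas 2.3.3 made the tables, and matplotlib 3.10.9 the figures. Related genes are the called ones, or else the 2 with the smallest p at day 7 and over both days. Atp1b2 and Atp1b3 were named after their values were seen. Likeness used the 3 genes with the highest r, without predicted gene models. The members and lists were chosen with earlier results of these data known. Batches are mentioned in the labels but not assigned to libraries, so batch and group cannot be told apart. Some genes and sequences of the family are not reported here.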

Additional observations from a re-analysis of the deposited data

How the results depend on the processing

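Scn2b was the only member called in the main test, at day 7 and over both days, and both calls depend on the setting while the direction does not. Members called over both days numbered 2 without a filter on low counts (401 of all 25032 genes), and 2 at day 7 and over both days by limma voom with sample weights (Scn2b and Scn3b, with 430 and 460 of all 14985 genes), against 34 and 98 genes in the main test. The calls of Scn3b are no support for a difference, since it was at 0 in every GFP library. DESeq2's Wald test called 1 at day 14 (Scn9a, with 750 genes in all), 1 for the difference between the days (Scn2b, 527 genes) and 1 between the days with GFP (Scn2b, 640 genes). With the replicate number as a block, 0 were called at day 7 and 0 over both days (Scn2b adjusted p = 0.0604 and 0.0572). Same-numbered libraries of different groups correlated at −0.0702 to 0.0477 in their deviations from the group means, and differently numbered ones at −0.0697 to 0.0789. In pools of a few cells the spread between pools could hide a shared animal or batch, so these values cannot exclude a pairing. Leaving out 1 library gave 0 to 1 called member at day 7 (1 in 1 of 6 cases) and over both days (1 in 4 of 12 cases). Chosen after seeing the data, leaving out the 4 libraries rich in microglia markers gave 0 at day 7 and over both days, and leaving out GFP day 14 replicates 1 and 3 (few genes detected, and rich in immunoglobulin genes) gave 0 over both days.

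Some log2 fold changes turned their direction. Scn8a at day 14 was 0.31 without GFP day 14 replicate 1, 0.15 and 0.12 without Olig1 day 14 replicates 1 and 3, and 0.16 without GFP day 14 replicates 1 and 3 together. Over both days Scn8a was −0.33 by voom and −1.22 without Olig1 day 14 replicate 2. That last omission gave −0.59 for Scn2a and −0.30 for Scn3a at day 14. Between the days with Olig1, Scn2b was 0.021 without Olig1 day 14 replicate 1 and Scn4b was 0.22 without Olig1 day 7 replicate 2. Leaving out 1 library gave −0.59 to 1.42 for Scn2a, −0.30 to 3.59 for Scn3a and −3.84 to 0.31 for Scn8a at day 14, −1.22 to 0.87 for Scn8a over both days, and −1.35 to 0.021 for Scn2b and −5.30 to 0.22 for Scn4b between the days with Olig1. Of the related genes' values given in the text, Rcor1 at day 7 ran from −3.81 to 0.71 with 1 library left out (0.71 without GFP day 7 replicate 2), and Kcna1 at day 14 was 3.96 without the 4 microglia-rich libraries. Leaving out some 1 library moved the fold by over 1.5 times for 19 of 21 values of the members other than Scn3b in the 3 comparisons of the viruses. With the block Atp1b1 lost its call over both days (adjusted p = 0.0684). The cause was not tested. TMM-scaled levels of the members moved by less than 1 SD in all 32 cases. A stricter filter left 6 members tested, without Scn3b and Scn4b, and DESeq2 gave no adjusted p for Scn3b. Low counts limit Scn2b in GFP day 7 (2 to 12 counts) and Scn4b with GFP (0 to 7 counts).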
